A study of Mus musculus with 5 samples.

Results

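Oxidative phosphorylation is carried by 5 protein complexes of the inner mitochondrial membrane, and the genes that encode their subunits were followed here across 5 mouse RNA sequencing libraries. A gene was taken as a member when its symbol starts with mt-Nd, mt-Co, mt-Atp, mt-Cyt, Ndufa, Ndufb, Ndufs, Ndufv, Ndufc, Uqcr, Atp5 or with Cox followed by 4 to 8, or when it is Sdha, Sdhb, Sdhc or Sdhd. Assembly factors named Ndufaf and pseudogenes marked -ps were left out. The rule gave 102 of the 34970 symbols in the count table, of which 13 are encoded in the mitochondrial genome and 89 in the nucleus. The rule uses gene symbols only, but it was set with earlier results of these data known.

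The libraries were MCC (a myeloid-like cell complex), PB (blood cells, described in the design text as CD45+), BM (bone marrow), iPSC (induced pluripotent stem cells) and MEF (mouse embryonic fibroblasts). Every library was labelled wild type and was made from polyA RNA. The study concerns the reprogramming of fibroblasts into macrophages. Age, sex, strain, culture time and the agents used to make MCC or iPSC are not stated in the labels, nor is the number of animals or cultures behind a library.

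Each group held 1 library, so the differences have no replicate check and are reported without p-values. Levels are CPM, a gene's counts brought to 1 common library size, with library sizes corrected by the TMM method (trimmed mean of M values). An interval after a ratio is its exact 95% Clopper-Pearson interval and covers counting error only. A member was called higher or lower when its CPM differed at least 2-fold and the higher library reached 5 CPM, with counts under 3 set to 3. Beside each first count stands the share of all genes that met the same rule in the same direction. In such bulk samples, fewer cells of a type and less RNA per cell cannot be told apart.

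Total counts ranged from 30078366 in PB to 47557598 in MCC. Markers mostly went with the labels in 4 libraries and were mixed in MCC. There C1qb, a complement gene of macrophages, was at 2288 CPM and Col1a1, a collagen of fibroblasts, at 6563 CPM. MEF had 0.162 and 8923 CPM of them. PB and BM held granulocyte, lymphocyte and red cell transcripts, and haemoglobin genes took 9.04% of counts in PB and 1.06% in BM. The exceptions to the labels included these red cell transcripts in PB, described as CD45+, and Tnnt2, a muscle marker, in iPSC and MEF. Genes of the 88 cytosolic ribosomal proteins took 13.7% of counts in MCC, 5.65% in PB, 5.48% in BM, 10.2% in iPSC and 11.2% in MEF. The part that these differences in make-up have in the results was not tested.

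Complexes I to IV form the respiratory chain, which passes electrons from NADH and succinate to oxygen, and complex V (ATP synthase) uses the proton gradient so formed to make ATP. The mitochondrial genome encodes 7 subunits of complex I, 1 of complex III, 3 of complex IV and 2 of complex V, and the nucleus supplies all other subunits, complex II included. Several subunits of complex IV exist as a broadly expressed form and a form known from muscle, lung or testis.

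All 13 mitochondrial members reached 5 CPM in every library. Of the 89 nuclear members, 84 reached 1 CPM in at least 1 library and 76 reached 5 CPM in all 5. The 5 that stayed under 1 CPM were Cox7b2, Cox8b and Cox8c, which are tissue forms of complex IV subunits, and Ndufs6b and Ndufa11b, which GENCODE annotates as processed pseudogenes. Cox6c2 and Ndufb4c have the same annotation although the rule keeps them, and every 50-base stretch of Ndufb4c also occurs in Ndufb4. Their counts are uncertain for that reason.

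Reads of several mitochondrial genes could not be placed with certainty, because the nuclear genome carries near-identical copies of them. The same 60 bases of mt-Co2, a subunit of complex IV, occur in the mitochondrial genome and in the unprocessed pseudogene Gm28661 on chromosome 1, and are shown because they bound what the counts of this gene can say. Coordinates are those of GENCODE M21 on mm10, and each sequence is written on its gene's strand.
mt-Co2, chrM:7313-7372, plus strand: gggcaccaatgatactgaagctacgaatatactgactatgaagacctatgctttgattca
Gm28661, chr1:24615206-24615265, minus strand: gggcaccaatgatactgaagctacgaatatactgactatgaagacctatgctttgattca
Over their aligned length 681 of 681 bases were identical. At least 90% of the 50-base stretches of 5 genes (mt-Co2, mt-Co3, mt-Atp6, mt-Nd3 and mt-Nd4l) recurred in other annotated transcripts, as did 62.2% of those of mt-Nd4 and 51.1% of those of mt-Co1. The other 6 (mt-Nd1, mt-Nd2, mt-Nd5, mt-Nd6, mt-Cytb and mt-Atp8) shared under 10%. In MCC, mt-Atp6 had 8321 counts and its chromosome 1 copy Gm10925 had 8421, and in BM they had 2249 and 2764. The labels do not state how reads with several matches were counted, so the levels of the 5 shared genes are lower-confidence values. The shared parts of mt-Nd4 and mt-Co1 carry the same limit. In MCC mt-Co1 had 592395 counts, and its copies Gm13340 and Gm29216 had 19429 and 7857.

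**Figure D1:**
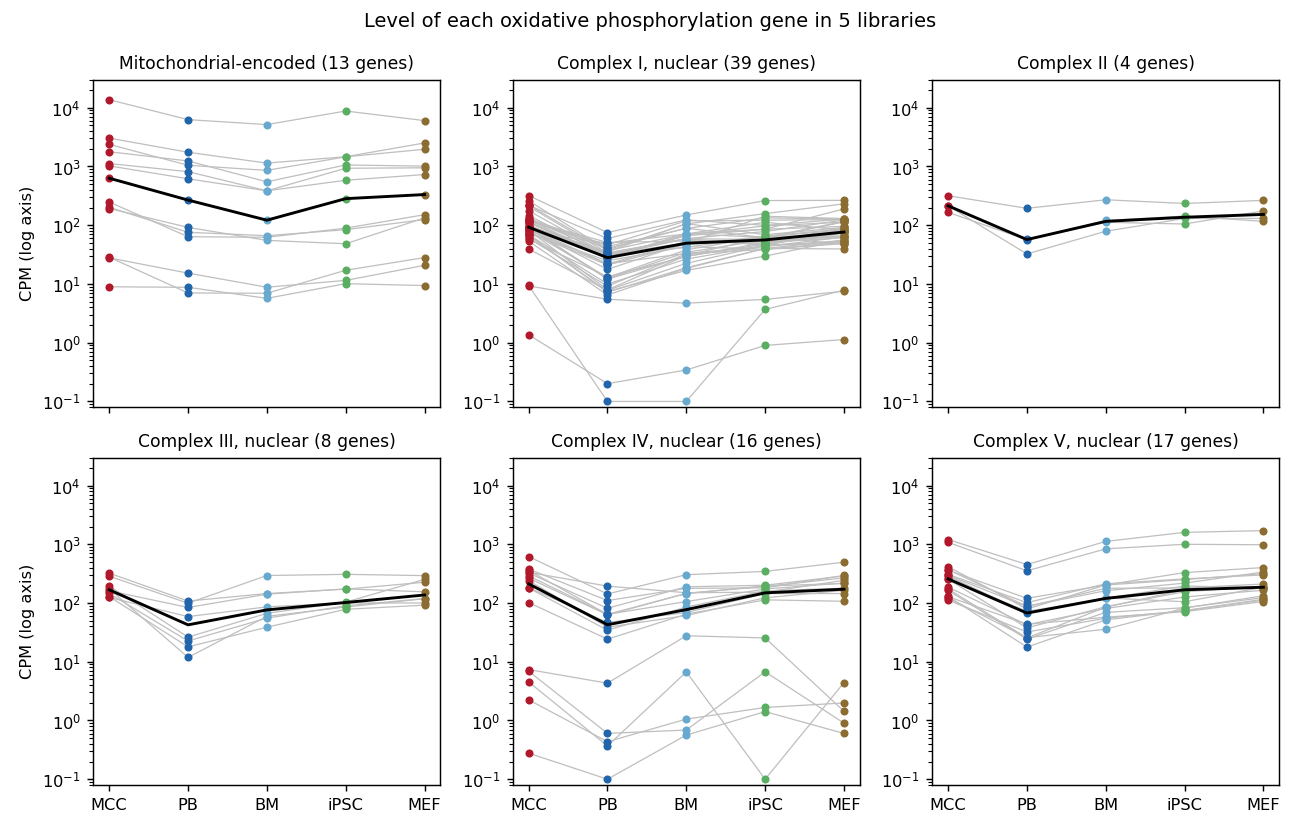
CPM (log axis) of each member in MCC, PB, BM, iPSC and MEF, 1 panel per complex and 1 for the mitochondrial-encoded genes; each dot is a gene in a library, grey lines join a gene, the black line is the median, and values under 0.1 CPM are drawn at 0.1. The nuclear medians dip in PB, whereas the mitochondrial median is lowest in BM.

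Mitochondrial transcripts were most abundant in MCC and least abundant in BM. MCC was the highest library for 12 of the 13 genes and BM the lowest for 12. The exceptions were mt-Nd4l, which was highest in iPSC, and mt-Atp6, which was lowest in iPSC; both belong to the 5 genes with shared sequence. With DESeq2 size factors MCC was the highest library for 11 genes and BM the lowest for 12, and with unscaled total counts these were 10 and 13. The matching counts among all genes were not made. By the 2-fold rule, 29.3% of all genes were higher in MCC than in BM and 24.8% lower.

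The most abundant mitochondrial member was mt-Co1, which encodes the catalytic core of complex IV. It was at 13711 CPM in MCC, 6278 in PB, 5169 in BM, 8802 in iPSC and 6043 in MEF. It made up 56.2% of all mitochondrial member counts in MCC, 51.1% in PB, 58.6% in BM, 59.3% in iPSC and 43.1% in MEF. Per kilobase of exon, mt-Co1 averaged 5178 CPM over the 5 libraries, against 1734 CPM for mt-Cytb, the next.

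Next came mt-Cytb, the cytochrome b of complex III, at 3044 CPM in MCC, 1748 in PB, 1143 in BM, 1466 in iPSC and 2518 in MEF. Among complex I genes, mt-Nd1 was at 2380, 1050, 859, 1461 and 1966 CPM in the same libraries. mt-Nd5, another membrane subunit of complex I, was at 1785, 1241, 548, 1062 and 1014 CPM. PB and MEF therefore changed places between genes: MEF had the larger value for mt-Cytb and mt-Nd1, and PB for mt-Nd5.

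mt-Nd6 is the only protein gene on the minus strand of the mitochondrial genome (chrM:13552-14070), and it was at 632 CPM in MCC, 268 in PB, 122 in BM, 284 in iPSC and 333 in MEF. Its 5.19-fold ratio of MCC to BM (5.03 to 5.35) was the largest of any mitochondrial gene in any of the 6 comparisons. The labels do not state whether counting used strand, so reads of the opposite strand cannot be told apart from those of mt-Nd6. mt-Nd2 was at 1122, 817, 385, 933 and 950 CPM in MCC, PB, BM, iPSC and MEF. mt-Nd4 was at 1025, 618, 386, 583 and 730 CPM, and mt-Atp8 at 27.8, 15.3, 8.81, 11.5 and 20.8 CPM. All 3 had BM as the lowest library and MCC as the highest.

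The 5 genes with shared sequence lay far below the rest. Per kilobase they averaged between 28.9 CPM (mt-Nd4l) and 162 CPM (mt-Co2), whereas all others except mt-Atp8 averaged 485 CPM or more. mt-Co2 was at 202 CPM in MCC, 75.9 in PB, 66.3 in BM, 84.0 in iPSC and 125 in MEF. mt-Co3 was at 248, 63.7, 62.3, 89.3 and 151 CPM, and mt-Atp6 at 193, 92.0, 55.2, 48.4 and 133 CPM. mt-Nd3 ranged from 6.95 to 28.6 CPM and mt-Nd4l from 5.70 to 10.1 CPM over the libraries.

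Set against the nuclear members, the mitochondrial genes weighed most in PB. Their share of all member counts was 74.0% in PB (73.9 to 74.1), 60.7% in MCC (60.7 to 60.8), 56.6% in iPSC (56.5 to 56.7), 50.4% in MEF (50.28 to 50.46) and 50.1% in BM (50.03 to 50.26). MEF and BM lay close together, and the other 3 libraries stood apart from them and from each other. Being a ratio within a library, the share does not depend on how libraries were scaled. The part that polyA selection has in the share was not tested. PB stayed highest, at 54.4%, and BM lowest, at 25.9%, when the mitochondrial side was cut to the 6 genes with under 10% shared stretches. The order of iPSC and MEF turned round: iPSC had 31.4% and MEF 33.0% with those 6 genes, and 34.7% and 36.6% when mt-Co1 alone was left out. In these versions BM, at 25.9% and 29.4%, no longer lay close to MEF.

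**Figure D2:**
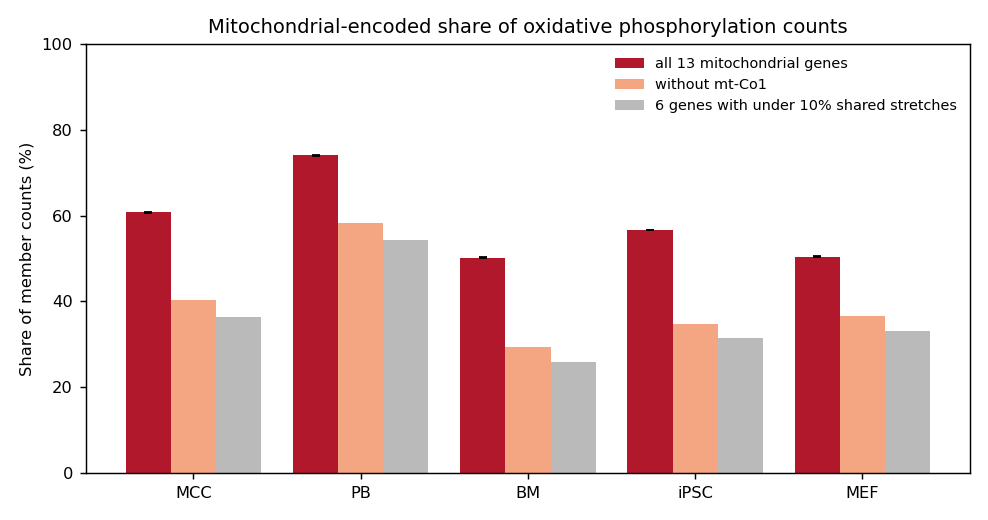
Share of member counts (percent) that came from mitochondrial-encoded genes in each library, for all 13 genes, without mt-Co1, and for the 6 genes with under 10% of stretches shared; black bars are 95% counting intervals. PB is highest and BM lowest in all 3 versions, and iPSC and MEF change order between them.

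Both sides of that share differed between PB and BM. Nuclear members took 0.428% of all counts in PB and 0.876% in BM, while mitochondrial members took 1.22% in PB and 0.881% in BM. In MCC the nuclear and mitochondrial shares of the library were 1.43% and 2.22%, in iPSC 1.36% and 1.77%, and in MEF 1.28% and 1.30%. Nuclear members took a smaller part of the PB library than of the other 4.

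Across the 84 nuclear members that reached 1 CPM, MCC was the highest library for 64, MEF for 11, iPSC for 6, BM for 3 and PB for 0. PB was the lowest library for 80. The median level was 129 CPM in MCC, 32.3 in PB, 66.5 in BM, 85.6 in iPSC and 116 in MEF. Among the 77 members that reached 20 CPM, the commonest order, held by 41, was MCC, MEF, iPSC, BM and then PB. The place of iPSC depends on scaling: with unscaled total counts MCC was highest for 51 of the 84 and iPSC for 25, and PB was still lowest for 80.

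That scaling matters because iPSC had a TMM factor of 1.19 and the other 4 libraries lay between 0.909 and 0.999. Going from TMM to total counts moved the median log2 ratio of all genes by -0.39 for MCC over iPSC and by 0.36 for iPSC over MEF. DESeq2 size factors moved it by -0.28 for MCC over PB and by 0.18 for PB over BM. The other shifts were at most 0.14 in size. Medians are therefore also given relative to the median of the 18416 genes at 1 CPM or more, a difference that does not change with scaling.

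**Figure D3:**
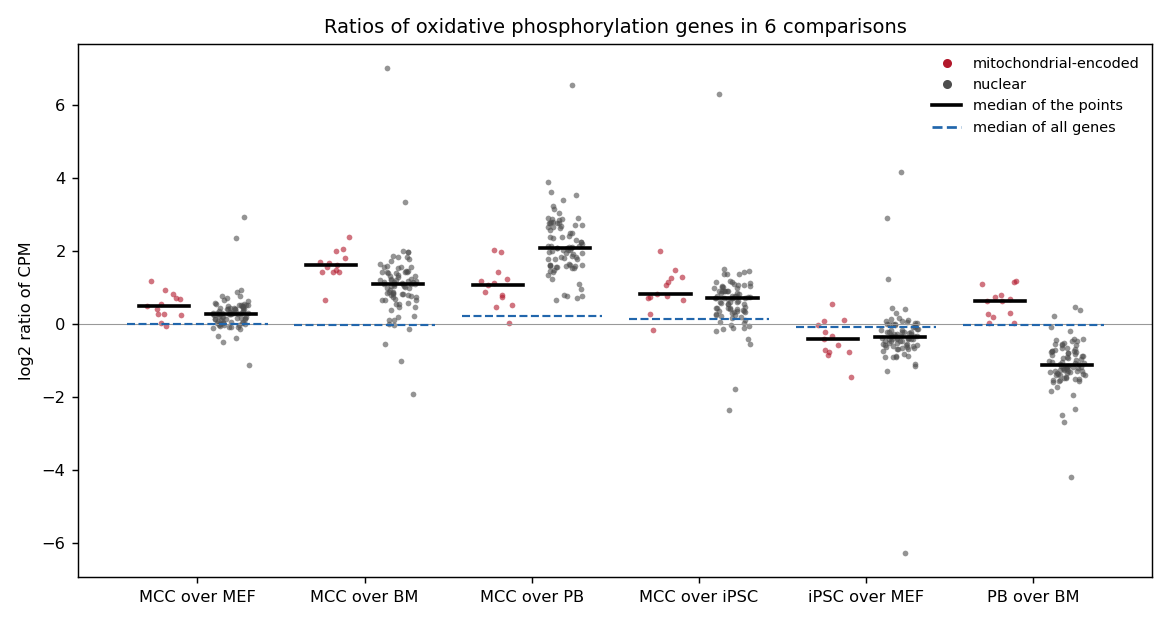
log2 ratio of CPM for each member in 6 comparisons, mitochondrial-encoded genes in red and nuclear genes in grey; black bars are medians of the points and dashed lines the median of all genes. In MCC over PB the nuclear median (2.08) lies above the mitochondrial one (1.07), and in PB over BM they lie on opposite sides of 0 (0.62 for mitochondrial, -1.13 for nuclear genes).

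Between MCC and MEF, the cells from which such reprogramming starts, most members lay close together. Of 93 members tested, 3 were higher in MCC and 0 lower, against 15.1% of all genes higher and 10.1% lower. The 3 were Cox7a1 and Cox6b2, described with the tissue isoforms, and mt-Co1, which was 2.27-fold higher in MCC (2.26 to 2.28). Of the 50-base stretches of mt-Co1, 51.1% recur in other transcripts. The median log2 ratio was 0.28 for nuclear and 0.49 for mitochondrial members, and 0.00 for all genes. With only the 6 least shared genes the mitochondrial median was 0.35, which is 0.07 above the nuclear one. The next largest nuclear ratio was that of Ndufv3, a small accessory subunit of complex I, with 146 CPM in MCC, against 76.6 CPM in MEF (1.91-fold). At the other end, Atp5b, the catalytic beta subunit of ATP synthase, had 1204 CPM in MCC, against 1708 CPM in MEF. Uqcrq, a small subunit of complex III, had 194 CPM in MCC, against 252 CPM in MEF, and Ndufb6 of complex I had 39.4 and 49.7 CPM. None of these last 4 reached the 2-fold rule.

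MCC stood further from BM. Of 94 members tested, 59 were higher in MCC and 1, Cox6b2, was lower, against 29.3% of all genes higher and 24.8% lower. The higher ones included 12 of the 13 mitochondrial genes and 47 of the 81 nuclear genes tested. Medians of the log2 ratio were 1.61 for mitochondrial and 1.09 for nuclear members, and -0.02 for all genes. Cox7b, a small subunit of complex IV, had 241 CPM in MCC, compared with 61.3 in BM (3.94-fold, 3.77 to 4.11). Ndufb7 of complex I had 95.9 CPM in MCC, compared with 107 in BM, and Uqcrc1 of complex III at 286 and 294 CPM. The distance differed by gene within each complex, as these 2 lay within 1.12-fold.

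MCC and PB differed most. Of 93 members tested, 81 were higher in MCC and 0 lower, against 38.6% of all genes higher and 26.0% lower. They included 74 of the 80 nuclear genes tested and 7 of the 13 mitochondrial ones. Nuclear members had a median log2 ratio of 2.08, against 1.07 for mitochondrial members and 0.21 for all genes. Uqcr11, a small subunit of complex III, reached 174 CPM in MCC, compared with 11.9 CPM in PB, a 14.7-fold ratio (13.2 to 16.4). Ndufa12, an accessory subunit of complex I, reached 82.5 CPM in MCC, compared with 7.93 CPM in PB (10.4-fold, 9.11 to 11.9). Those least apart were Ndufs1, at 77.1 CPM in MCC and 49.5 CPM in PB, Sdha, at 317 and 194 CPM, and Ndufb2, at 9.26 and 5.49 CPM.

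MCC over iPSC gave fewer calls, and these rested on the scaling. Of 93 members tested, 22 were higher in MCC and 1, Cox6b2, was lower, against 24.3% of all genes higher and 19.2% lower. With total counts 5 were higher, against 16.7% of all genes. The share of members called higher was thus near that of all genes under TMM and below it with total counts. The nuclear median lay 0.56 above that of all genes and the mitochondrial median 0.68 above it, on the log2 scale. Ndufa3, an accessory subunit of complex I, reached 128 CPM in MCC, compared with 45.4 CPM in iPSC (2.82-fold, 2.69 to 2.96). Atp5e, the epsilon subunit of ATP synthase, reached 289 CPM in MCC, compared with 105 CPM in iPSC, and Ndufa13 at 209 and 78.2 CPM. Ndufs1, a core subunit of complex I, reached 77.1 CPM in MCC, compared with 112 CPM in iPSC.

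For iPSC over MEF, 2 members were higher and 4 lower of 93 tested, against 16.4% of all genes higher and 16.5% lower. With total counts these were 2 and 1. The higher ones were Cox6b2 and Cox7a1. The lower ones were Uqcrq, at 104 CPM in iPSC and 252 CPM in MEF, Ndufa2, at 85.7 and 190 CPM, Ndufa4l2 and mt-Atp6. The median log2 ratio of nuclear members was -0.35 with TMM and 0.01 with total counts, so it has no direction of its own. Relative to all genes it was -0.26 under each scaling, and the mitochondrial median was -0.34.

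PB over BM was the comparison in which the genomes parted. Of 92 members tested, 3 were higher in PB and 47 lower, against 16.0% of all genes higher and 23.4% lower. The 47 were all nuclear, out of 79 nuclear genes tested, and the 3 were mt-Nd2, mt-Nd5 and mt-Nd6, which belong to the 6 genes with under 10% shared stretches. mt-Nd5 was 2.26-fold higher in PB (2.23 to 2.30), mt-Nd6 2.20-fold (2.12 to 2.28) and mt-Nd2 2.12-fold (2.08 to 2.17). The median log2 ratio was 0.62 for mitochondrial and -1.13 for nuclear members, a gap of 1.75, which is 3.37-fold. With only the 6 least shared genes the mitochondrial median was 0.94 and the gap 2.07. Haemoglobin shares also differed between PB and BM, as did the granulocyte genes S100a8 (1516 and 12249.6 CPM) and Ltf (69.2 and 8927 CPM), and their part in the gap was not tested. The mitochondrial ribosomal RNAs were also higher in PB than in BM, mt-Rnr1 at 314 and 218 CPM and mt-Rnr2 at 725 and 350 CPM. The part of polyA selection in the gap was not tested either.

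A stricter 4-fold rule left few calls outside the PB comparison. In MCC over MEF 2 members were higher and 0 lower, against 8.05% of all genes higher and 2.71% lower. MCC over BM had 4 and 0, against 15.6% and 13.5%, and MCC over PB 46 and 0, against 21.5% and 15.4%. MCC over iPSC had 0 and 0, against 11.3% and 9.77%. For iPSC over MEF the counts were 2 and 0, against 8.83% and 6.37%, and for PB over BM 0 and 3, against 6.32% and 9.68%. The share of members called at 4-fold was thus above that of all genes for MCC over PB in the higher direction and below it elsewhere.

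By complex, the nuclear genes kept the same broad order and differed in spread. The 7 core subunits of complex I, which include those with the iron-sulphur and flavin centres, had a median log2 ratio of 1.78 for MCC over PB. The other genes with an Nduf symbol had one of 2.31 over the 32 measured. Those 32 are not all complex I subunits, as they include Ndufa4, Ndufa4l2 and the processed pseudogene Ndufb4c. In the text and figures genes were placed in a complex by symbol. Ndufv1, which binds NADH, was at 118 CPM in MCC, 46.4 in PB, 119 in BM, 122 in iPSC and 125 in MEF, so that PB alone stood apart. Ndufa2, the complex I gene with the highest level per kilobase, was at 220, 37.0, 70.9, 85.7 and 190 CPM.

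Complex II, succinate dehydrogenase, also works in the tricarboxylic acid cycle and has only nuclear genes. Sdha, the flavoprotein, was at 317 CPM in MCC, 194 in PB, 271 in BM, 235 in iPSC and 265 in MEF, a 1.63-fold range that was the narrowest of all 84 measured nuclear members. Sdhb, the iron-sulphur subunit, was at 215, 57.2, 112, 105 and 175 CPM. The membrane anchors Sdhc and Sdhd were at 213, 32.4, 79.0, 130 and 131 CPM and at 166, 56.8, 120, 143 and 116 CPM. The subunits of this one enzyme were therefore not in step: MCC was 1.63-fold above PB for Sdha (1.58 to 1.68) and 6.57-fold for Sdhc (6.15 to 7.03).

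Complex III showed a similar division. Its large core proteins Uqcrc1 and Uqcrc2 were at 286 and 162 CPM in MCC, 99.2 and 84.0 in PB, 294 and 141 in BM, 308 and 174 in iPSC, and 293 and 155 in MEF. The Rieske iron-sulphur protein Uqcrfs1 was at 125, 58.7, 85.9, 100.5 and 100.1 CPM. The small Uqcr11 was at 174, 11.9, 59.2, 85.5 and 118 CPM, and Uqcrq at 194, 26.2, 66.7, 104 and 252 CPM. Uqcrh, the hinge protein, had the highest level per kilobase in this complex and was at 322, 108, 145, 172 and 226 CPM. The core and Rieske genes spanned 2.07- to 3.10-fold over the libraries, against 14.7-fold for Uqcr11 and 9.62-fold for Uqcrq. Uqcrh ran only from 108 CPM in PB to 322 CPM in MCC, within the span of the core and Rieske genes.

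In complex IV, Cox8a had the highest level per kilobase, and its CPM were 378 in MCC, 110 in PB, 177 in BM, 181 in iPSC and 294 in MEF. Cox4i1, the broadly expressed form of subunit 4, was at 617, 143, 303, 345 and 495 CPM. Cox7a2l, which joins complexes III and IV into supercomplexes, broke the usual order, with 333 CPM in MCC, 194 in PB, 150 in BM, 153 in iPSC and 243 in MEF. It was the only nuclear member above 20 CPM that was lowest in BM. Its 1.30-fold ratio of PB to BM (1.25 to 1.34) was the largest among the nuclear members tested and did not reach the 2-fold rule. Ndufa4, named after complex I and known as a subunit of complex IV, was at 261, 37.9, 105, 158 and 231 CPM.

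In ATP synthase, all 17 nuclear genes were higher in MCC than in PB by the 2-fold rule, with log2 ratios between 1.41 and 2.87. Atp5b had the highest level per kilobase and was at 1204 CPM in MCC, 452 in PB, 1118 in BM, 1595 in iPSC and 1708 in MEF. Atp5a1, the alpha subunit, was at 1079, 353, 836, 999 and 981 CPM. Subunit c, which forms the rotor ring, is encoded by 3 genes that yield the same mature protein. Atp5g3 gave 49.1% of their counts in MCC, 44.8% in PB, 49.8% in BM, 47.6% in iPSC and 52.7% in MEF. Atp5g2 gave 30.4%, 40.8%, 29.4%, 28.2% and 23.7%, and Atp5g1 the remainder. PB therefore drew more of its subunit c counts from Atp5g2 (39.5 to 42.2) than the other libraries, but 36.7% of the 50-base stretches of Atp5g2 recur in the predicted gene Gm10175, and part of its reads may not have been placed.

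The tissue isoforms were minor beside their broadly expressed partners and each had a pattern of its own. Of 8 such genes in 5 libraries, 13 of the 40 values reached 1% of the family's counts. Cox7b2, Cox8b and Cox8c had at most 20 counts in any library, and Cox4i2, the lung form of subunit 4, was at most 1.42 CPM (iPSC).

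Cox6b2, known as the testis form of subunit 6b, was at 7.36 CPM in MCC, 4.32 in PB, 27.7 in BM, 25.4 in iPSC and 1.43 in MEF. Its share of Cox6b counts was 2.01% in MCC, 6.32% in PB, 15.9% in BM (15.1 to 16.8), 11.7% in iPSC (11.1 to 12.3) and 0.533% in MEF. It was 17.7-fold higher in iPSC than in MEF (13.7 to 23.3) and 5.13-fold higher in MCC than in MEF (3.90 to 6.85). MCC was 3.77-fold lower than BM (3.32 to 4.28) and 3.45-fold lower than iPSC (3.05 to 3.92), and PB was 6.42-fold lower than BM (5.34 to 7.76). The partner Cox6b1 had another order, with 359 CPM in MCC, 64.0 in PB, 146 in BM, 192 in iPSC and 267 in MEF. Of the testis markers, Ldhc was at 2.995 CPM in BM, 2.56 in iPSC and at most 0.870 elsewhere, and Tnp1 and Prm1 were at most 0.712 CPM in any library.

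Cox7a1, the heart and muscle form of subunit 7a, was at 6.90 CPM in MCC, 0.603 in PB, 0.687 in BM, 6.73 in iPSC and 0.902 in MEF. MCC was 7.65-fold higher than MEF (5.47 to 11.0), 10.03-fold higher than BM (6.80 to 15.4) and 11.4-fold higher than PB (7.12 to 19.6), and iPSC 7.47-fold higher than MEF (5.36 to 10.7). MCC and iPSC thus lay together and the other 3 libraries together below them. The partner Cox7a2 did not share this division, at 180, 34.4, 85.4, 161 and 179 CPM in MCC, PB, BM, iPSC and MEF. The muscle markers were not at one level with it: in MCC all 5 (Ckm, Myh3, Ttn, Actc1 and Tnnt2) were at most 0.0926 CPM, while in iPSC Tnnt2 was at 71.0 CPM and in MEF at 22.1 CPM.

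Cox6a2, the heart and muscle form of subunit 6a, had yet another pattern, at 4.54 CPM in MCC, 0.368 in PB, 6.70 in BM and 4.42 in MEF. It had 0 counts in iPSC, where the upper 95% limit of its share of the 10481 Cox6a family counts was 0.0352%. PB was 18.2-fold lower than BM (10.01 to 36.9). Ndufa4l2, a form of Ndufa4 known to be induced by low oxygen, was at 9.42 CPM in MCC, 3.69 in iPSC and 7.84 in MEF. It had 0 counts in PB and 3 in BM. With PB set to the floor of 3 counts, MCC was 93.8-fold higher than PB (lower 95% limit 75.9), and it was 128-fold higher than BM (43.5 to 623). iPSC was 2.12-fold lower than MEF (1.77 to 2.55), and MCC did not meet the rule against MEF.

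**Figure D4:**
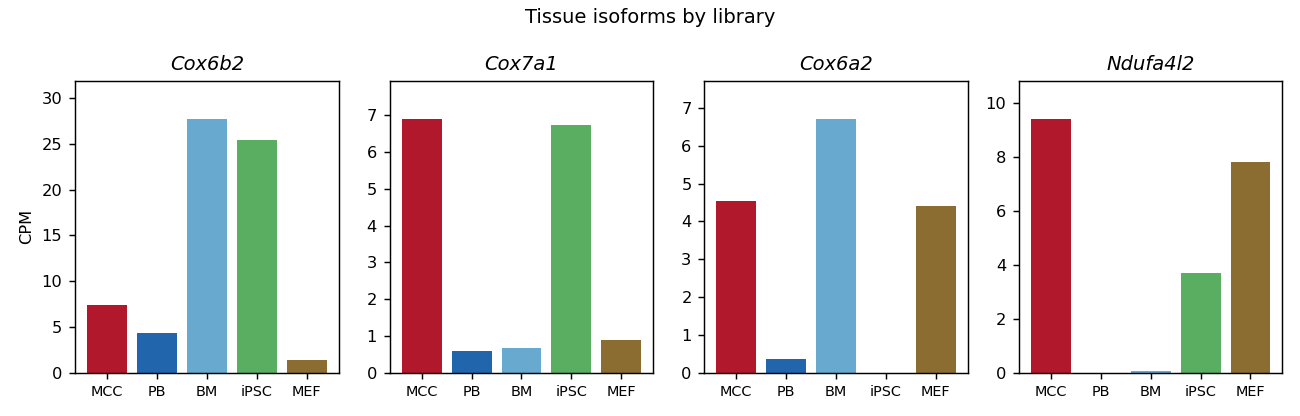
CPM of 4 tissue isoforms in MCC, PB, BM, iPSC and MEF, on a separate axis for each gene, all from 0. Cox6b2 is highest in BM and iPSC, Cox7a1 in MCC and iPSC, Cox6a2 is at 0 in iPSC, and Ndufa4l2 is near 0 in PB and BM.

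Members of short exonic length were further apart between MCC and PB than those of long exonic length. This length merges all annotated exons of a gene, so it can exceed that of any 1 transcript. Exonic length and the log2 ratio of MCC over PB had a Spearman correlation of -0.37 across 83 nuclear members, against -0.06 across 18231 genes of all kinds; genes are not independent replicates, and both axes share the libraries. The median log2 ratio was 2.53 for the 22 members under 1 kb and 2.02 for the 61 of 1 kb or more. Among all genes it was 0.64 for the 2150 under 1 kb and 0.02 for the 10862 of 3 kb or more. The other comparisons of MCC had the same sign of correlation: across members it was -0.24 for MCC over MEF, -0.21 for MCC over BM and -0.25 for MCC over iPSC, against -0.11, -0.04 and -0.09 across all genes. The medians of short and long members lay closer there, at 0.29 and 0.28 for MCC over MEF, 1.09 and 1.04 for MCC over BM, and 0.72 and 0.60 for MCC over iPSC. For iPSC over MEF and PB over BM the members had correlations of 0.21 and 0.18, against 0.04 for all genes in both. Length moves with the ratios, and its part in them was not tested.

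**Figure D5:**
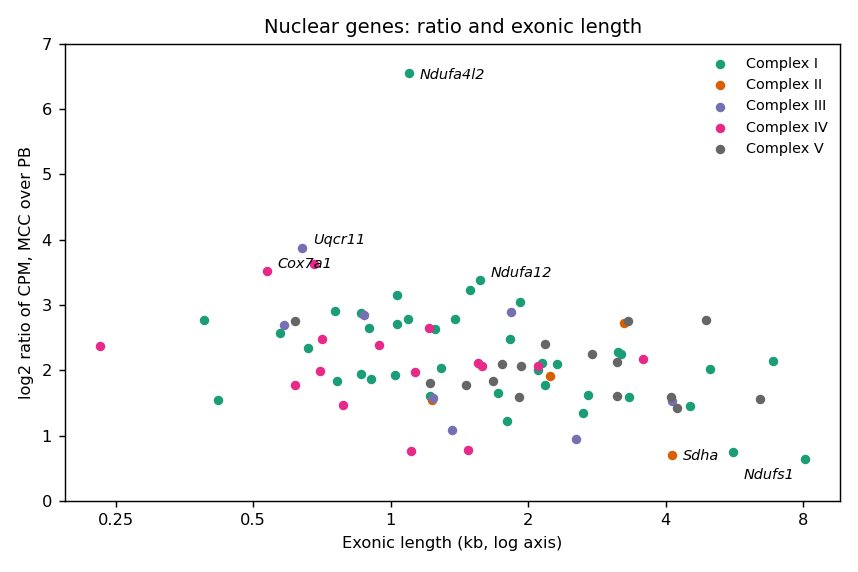
log2 ratio of CPM of MCC over PB against exonic length (kb, log axis) for 83 nuclear members, coloured by complex. The long Ndufs1 and Sdha lie at the bottom (0.64 and 0.71) and the short Uqcr11 at 3.88, with Ndufa4l2 above all others because PB held no count of it.

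The starts of the genes were searched for 4 motifs in RefSeq windows of 250 bases before to 50 after the annotated start, on both strands, for the 69 nuclear members that have such a window and for 27025 genes in all. The palindrome of GCGCA and its reverse complement, bound by nuclear respiratory factor 1 (NRF1), was found in 5 members (7.25%) and in 0.977% of all windows. CCGGAAG, a core bound by the ETS family to which the GABP subunits belong, was found in 16 members (23.2%) and in 9.12% of all. AAGATGGCG, bound by YY1, was found in 6 members (8.70%) and in 1.49% of all, and TATAAA in 8 members (11.6%) and 14.2% of all. The median G and C content of the 250 upstream bases was 56.4% for members and 52.0% for all genes. A match is a string of letters and not a bound site.

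The upstream stretches of 4 members are given as examples, trimmed to the part without an annotated exon (RefSeq, GRCm38.p6, on each gene's strand). Cox6b2 and Cox7a1 are tissue isoforms called in most comparisons, and Cox6a1 and Uqcr11 are broadly expressed genes with a motif. Capitals mark a match to the NRF1 or the ETS string.
Cox6b2, chr7:4753095-4753225, minus strand: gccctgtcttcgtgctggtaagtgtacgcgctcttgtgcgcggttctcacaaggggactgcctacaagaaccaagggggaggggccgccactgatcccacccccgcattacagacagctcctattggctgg
Cox7a1, chr7:30183921-30184143, plus strand: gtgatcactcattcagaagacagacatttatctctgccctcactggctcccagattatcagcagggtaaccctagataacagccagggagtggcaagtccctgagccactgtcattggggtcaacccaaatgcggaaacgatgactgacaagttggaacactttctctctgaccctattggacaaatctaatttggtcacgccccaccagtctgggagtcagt
Cox6a1, chr5:115348982-115349129, minus strand: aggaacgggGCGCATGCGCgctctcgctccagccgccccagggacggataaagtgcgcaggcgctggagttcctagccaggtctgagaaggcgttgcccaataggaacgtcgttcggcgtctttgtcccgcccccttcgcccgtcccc
Uqcr11, chr10:80406831-80407071, minus strand: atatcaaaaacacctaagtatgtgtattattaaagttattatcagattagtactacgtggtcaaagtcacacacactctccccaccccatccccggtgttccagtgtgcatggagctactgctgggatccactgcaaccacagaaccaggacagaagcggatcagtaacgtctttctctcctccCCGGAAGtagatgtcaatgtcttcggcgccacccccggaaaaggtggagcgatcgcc
The Cox6b2 and Cox7a1 stretches hold neither string. Cox6a1 was at 324 CPM in MCC, 81.3 in PB, 189 in BM, 201 in iPSC and 289 in MEF, with MCC highest and PB lowest as for Uqcr11.

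Other genes of the pathway came from lists drawn up for this tissue set. Of 41 assembly factors tested, which build the complexes without being part of them, 24 exceeded PB in MCC and 1 was lower. In MCC over BM 20 were higher and 0 lower, and in MCC over MEF 3 were higher and 0 lower, with median log2 ratios of 1.21, 0.87 and 0.17 in these comparisons. All genes were called higher at 38.6% for MCC over PB, 29.3% for MCC over BM and 15.1% for MCC over MEF, and lower at 26.0%, 24.8% and 10.1%; the counts of the lists that follow are to be read against these shares. The largest ratio to PB was that of Uqcc2, a factor of complex III, at 108 CPM in MCC and 7.83 CPM in PB (13.8-fold, 12.1 to 15.8). The exception was Cox17, a copper chaperone of complex IV, at 1.43 CPM in MCC, 17.9 in PB, 4.44 in BM, 3.12 in iPSC and 1.41 in MEF. It was 12.5-fold lower in MCC than in PB (9.60 to 16.5).

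Of 16 enzymes of the tricarboxylic acid cycle and of pyruvate entry into it, 8 exceeded their PB level in MCC and 0 fell below it, where 38.6% of all genes were higher and 26.0% lower. In MCC over MEF 1 was higher, 1 lower and the median log2 ratio was -0.16. The higher one was Fh1, fumarate hydratase, at 428 CPM in MCC, 29.96 in PB, 71.0 in BM, 157 in iPSC and 111 in MEF. It was the only enzyme of the list called higher in MCC against all 4 other libraries, by 14.3-fold (13.4 to 15.3) against PB and 2.72-fold (2.65 to 2.79) against iPSC. The lower one was Idh3a, a subunit of the NAD-dependent isocitrate dehydrogenase, with 51.9 CPM in MCC, against 120 CPM in MEF.

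Of 13 genes used to gauge mitochondrial mass, among them import pores, porins and chaperones, 11 exceeded their PB level in MCC and 0 fell below it; the median log2 ratio was 1.64. In MCC over MEF 0 were higher and 1 lower, Hspd1, a matrix chaperone, with 215 CPM in MCC, against 589 CPM in MEF. The median log2 ratio of that list was -0.53 for MCC over MEF, where the nuclear members had 0.28. In PB over BM it was -0.98, close to the -1.13 of the nuclear members. Of the 13 genes 0 were higher there and 6 lower, against 16.0% of all genes higher and 23.4% lower.

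Of 15 electron carriers and enzymes of coenzyme Q synthesis tested, 8 were higher in MCC than in PB and 1, Coq8a, was higher in MCC than in MEF (11.5-fold, 8.81 to 15.2). Cycs, the somatic cytochrome c, was at 82.9 CPM in MCC, 29.997 in PB, 62.0 in BM, 126 in iPSC and 161 in MEF. Cyct, the testis form, was at 24.2 CPM in iPSC and had 0 counts in the other 4 libraries. With MEF set to the floor of 3 counts, iPSC was 348-fold higher than MEF (lower 95% limit 283).

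Of 13 regulators of mitochondrial biogenesis tested in MCC over MEF, 1 was higher and 0 were lower, and in MCC over BM 1 of 13 was higher and 2 lower. MCC over PB gave 3 higher and 2 lower of 14, and MCC over iPSC 1 higher and 4 lower of 14, against 24.3% and 19.2% of all genes in that comparison. Myc was at 214 CPM in MCC, 88.9 in PB, 67.2 in BM, 67.9 in iPSC and 77.1 in MEF. Nrf1 was at 28.7 CPM in MCC, 55.1 in PB, 94.0 in BM, 56.6 in iPSC and 39.3 in MEF, and Gabpb1, a GABP subunit, at 16.3, 40.3, 43.8, 34.7 and 25.6 CPM. The MCC value was the lowest of the 5 for both. The part that these regulators have in the levels of the subunits was not tested. The coactivator Ppargc1b was at 1.204 CPM in MCC, against 9.61 CPM in PB. Esrrb, an orphan nuclear receptor of pluripotent cells, was at 180 CPM in iPSC and at most 0.123 CPM elsewhere.

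Of 10 genes for the upkeep of mitochondrial DNA, 3 exceeded their PB level in MCC and 3 fell below it, against 38.6% of all genes higher and 26.0% lower, so the list lay near the background. Polg, the catalytic subunit of its polymerase, was at 37.3 CPM in MCC, 98.6 in PB, 131 in BM, 53.5 in iPSC and 55.7 in MEF. Its partner Polg2 was at 6.99, 26.4, 11.8, 7.94 and 2.68 CPM. Of 13 genes for handling mitochondrial RNA tested in MCC over PB, 2 were higher and 0 lower, Hsd17b10 at 112 CPM in MCC and 21.1 CPM in PB among them. In PB over BM 0 of 14 were higher and 3 lower, against 16.0% of all genes higher and 23.4% lower, so the lower calls lay near the background.

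Of 8 genes for ATP export, uncoupling and inhibition, 5 were higher in MCC than in PB, and 1, Ucp2, was lower. Slc25a4, the ADP/ATP carrier of heart and muscle, was at 586 CPM in MCC, 49.7 in PB, 43.9 in BM, 350 in iPSC and 619 in MEF, so that MCC was 13.4-fold higher than BM (12.7 to 14.0). Slc25a5, the broadly expressed carrier, was at 452, 259, 411, 413 and 466 CPM. Ucp2, an uncoupling protein family member of immune cells, was at 491 CPM in MCC, 1427 in PB, 1398 in BM, 49.95 in iPSC and 9.504 in MEF. Atpif1, the inhibitor of ATP synthase, was at 167, 8.47, 71.2, 59.8 and 97.8 CPM, and MCC was 19.7-fold higher than PB (17.4 to 22.4). Slc25a4 and Atpif1 thus had high MCC values, while Ucp2 in MCC lay between the blood libraries and MEF.

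Genes of the low-oxygen response were compared because Ndufa4l2 belongs to that response. Of 10 tested in MCC over MEF, 2 were higher and 3 lower, and in MCC over PB 5 of 9 were higher and 1 lower. Egln3 was at 2.36 CPM in MCC, 68.1 in iPSC and 11.1 in MEF, and Slc2a1, a glucose transporter, at 35.0, 718 and 135 CPM. Neither had the order of Ndufa4l2, which was highest in MCC of the 3. The 2 called higher in MCC than in MEF were Epas1, at 14.8 and 2.13 CPM, and Pdk1, at 61.9 and 30.7 CPM. Epas1 was at 40.3 CPM in iPSC. In PB, where Ndufa4l2 had no counts, the genes of the list were mixed. Bnip3 had 33.3 CPM in MCC, against 6.93 CPM in PB, while Slc2a1 had 35.0 CPM in MCC, against 129 CPM in PB. Pdk1 had 61.9 CPM in MCC, against 93.9 CPM in PB, and Hif1a 166 and 141 CPM.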

How the data were processed

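RNA was taken with Trizol and polyA RNA purified, per the labels' protocols. The authors deposited whole-number read counts per gene symbol, not normalized; STAR, featureCounts and mm10 are named in the submitters' processing notes. Versions, annotation, strand setting and multi-match handling: not given in the sources used here. Counts came in one table with 5 columns, each matched by name, with 0 left unused.

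From these, CPM were computed on TMM library sizes (edgeR 4.0.16, R 4.3.3), and ratios with conditional binomial 95% intervals for all genes (Python 3.11.15, scipy 1.17.1); the same step was tested on simulated data. With 1 library per group, no count model was fitted. Lengths, positions and shared 50-base stretches came from GENCODE M21, which matched 101 of 102 members (not Atp5o). A length is that of all annotated exons of a gene merged, and values per kilobase use it. Alternatives were DESeq2 1.42.0 size factors, total counts, no minimum or 20 CPM, a 4-fold rule, counts per kb, and sets of mitochondrial genes.

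Genes named are all mitochondrial members, complex II, the isoform families, the top gene per kilobase of each complex, the 3 highest and 3 lowest nuclear ratios per comparison and the most changed genes of each list; Uqcrc1, Uqcrc2, Uqcrfs1, Ndufv1, Ndufa12, Atp5a1, Cycs, Slc25a5 and some listed levels in further libraries were chosen after their values were seen. Members and lists were chosen with earlier results of these data known.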

Additional observations from a re-analysis of the deposited data

How the results depend on the processing

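Counts of called members and medians over all 6 comparisons were recomputed under each setting, and the cause of each move was not tested unless the setting itself states it. With total counts, the nuclear median for iPSC over MEF changed sign (0.0089), the calls higher in MCC over iPSC fell to 5 and those lower in iPSC over MEF to 1. Under the 4-fold rule, calls higher were 4 for MCC over BM, 46 for MCC over PB, 0 for MCC over iPSC and 0 for PB over BM; calls lower were 0 for MCC over BM, 0 for MCC over iPSC, 0 for iPSC over MEF and 3 for PB over BM. Without a minimum level, calls lower were 1 for MCC over MEF, 2 for MCC over BM and 4 for MCC over iPSC, and calls higher 5 for iPSC over MEF. A minimum of 20 CPM left 1 call higher for MCC over MEF and 1 for iPSC over MEF.

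Other medians kept their sign. With DESeq2 size factors the nuclear ones were 0.99 (MCC over BM), 1.80 (MCC over PB) and -0.95 (PB over BM), and the mitochondrial ones 0.46 (MCC over MEF), 1.51 (MCC over BM), 0.78 (MCC over PB), 0.76 (MCC over iPSC), -0.40 (iPSC over MEF) and 0.81 (PB over BM). With total counts the nuclear ones were 0.95, 1.95 and 0.30 (MCC over BM, PB and iPSC), and the mitochondrial ones 0.46, 1.47, 0.94 and 0.42 (MCC over MEF, BM, PB and iPSC) and -0.068 (iPSC over MEF). Without mt-Nd4l, mt-Atp8 and mt-Nd6 the mitochondrial median was 0.78 (MCC over iPSC), -0.50 (iPSC over MEF) and 0.45 (PB over BM). With the 6 least shared genes, a setting chosen after seeing the data, it was 0.35 (MCC over MEF), 0.83 (MCC over PB), 0.90 (MCC over iPSC), -0.33 (iPSC over MEF) and 0.94 (PB over BM).

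The mitochondrial share, in the order MCC, PB, BM, iPSC and MEF, was 65.2, 79.0, 56.9, 63.5 and 57.8% per kilobase. Without mt-Nd4l, mt-Atp8 and mt-Nd6 it was 60.1, 73.6, 49.8, 56.1 and 49.7%. In settings added after seeing the data it was 36.3, 54.4, 25.9, 31.4 and 33.0% with the 6 least shared genes, 40.4, 58.2, 29.4, 34.7 and 36.6% without mt-Co1, and 62.0, 74.8, 51.4, 57.8 and 51.7% with the nuclear copies added. No paired analysis was possible because each group has 1 library. Intervals cover counting error only, and depth bounds only the genes with few counts.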

Other observations

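Some rows outside the rule carried related counts. Of 14 rows that share a member's prefix and are marked -ps, Ndufb1-ps was by far the most abundant, at 115 CPM in MCC, 30.4 in PB, 63.8 in BM, 69.9 in iPSC and 84.6 in MEF, with MCC highest and PB lowest as for most nuclear members. The next was Cox5b-ps, at 16.6, 3.38, 6.997, 11.6 and 12.7 CPM.

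The mitochondrial ribosomal RNAs did not have the order of the mitochondrial protein genes. mt-Rnr1 was at 279 CPM in MCC, 314 in PB, 218 in BM, 89.2 in iPSC and 106 in MEF, and mt-Rnr2 at 355, 725, 350, 121 and 317 CPM. Both were highest in PB and lowest in iPSC. The libraries were made from polyA RNA, so these values also depend on how much ribosomal RNA the selection left, which was not tested.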
